A study of Mus musculus with 22 samples.

Results

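The 9 CC chemokine genes described here are Ccl2, Ccl5, Ccl7, Ccl8, Ccl9, Ccl11, Ccl17, Ccl20 and Ccl25. They were chosen by name, with earlier results of these data known. A probe was counted to a gene when the accession printed for it on the array mapped to that symbol. This gave 10 probes for 9 of the 20018 genes with a symbol on the array, Ccl25 having 2 probes and each of the other 8 genes having 1. RNA was measured in FE1 cells, an immortal lung epithelial line from the MutaMouse transgenic mouse, grown with epidermal growth factor and exposed for 24 h to Mitsui7, a preparation of multiwalled carbon nanotubes (MWCNT). Control cells received 0 µg/ml (Control, 5 arrays), and exposed cells received 12.5 µg/ml (D1, the low dose, 6 arrays), 25 µg/ml (D2, the medium dose, 5 arrays) or 100 µg/ml (D3, the high dose, 6 arrays). Every group was the same cell line in monoculture, so by design no group was given the macrophages or other leukocytes of a lung. Nothing here covers more than 1 line. On each of the 22 arrays the sample carried the dye Cy5 and a pool of mouse RNA, the same on all arrays, carried Cy3, and each gene was read as log2(sample/reference).

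CC chemokines are small secreted proteins, named for a pair of adjacent cysteines, that bind heparan sulfate on cell surfaces and matrix and guide leukocytes through G protein-coupled receptors. Airway and alveolar epithelium can secrete several of them after injury or inhaled particles, and alveolar macrophages are another main source in the lung. Ccl2, Ccl7 and Ccl8 are known as monocyte chemoattractant proteins, Ccl9 is a further attractant of myeloid cells in mice, and Ccl11 (eotaxin) attracts eosinophils. Ccl5 (RANTES), Ccl17 and Ccl20 act mainly on T cells and dendritic cells, and Ccl25 is known for directing T cells to thymus and small intestine. In the RefSeq gene order of GRCm38.p6, Ccl2, Ccl7, Ccl11, Ccl8, Ccl5 and Ccl9 lie in this order on chromosome 11, Ccl25 and Ccl17 lie on chromosome 8 and Ccl20 lies on chromosome 1.

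Promoter sequence is shown for the genes called below for which the RefSeq table of GRCm38.p6 held an entry, which were Ccl8 and Ccl25, each as the 250 bases before a start on the plus strand. The table held 5 of the 9 genes with 6 starts, and Ccl2, Ccl5, Ccl7 and Ccl11 were not among them. Ccl8 is at chr11:82114935-82115184, and the starts of Ccl25 are at chr8:4324960-4325209 and chr8:4349338-4349587. Capitals mark matches to the TATA box letters TATAAA.
Ccl8: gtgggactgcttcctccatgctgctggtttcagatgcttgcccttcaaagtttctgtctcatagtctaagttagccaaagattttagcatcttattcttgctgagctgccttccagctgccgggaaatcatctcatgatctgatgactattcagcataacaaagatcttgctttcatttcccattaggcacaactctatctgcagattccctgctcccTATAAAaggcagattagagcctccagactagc
Ccl25, first start: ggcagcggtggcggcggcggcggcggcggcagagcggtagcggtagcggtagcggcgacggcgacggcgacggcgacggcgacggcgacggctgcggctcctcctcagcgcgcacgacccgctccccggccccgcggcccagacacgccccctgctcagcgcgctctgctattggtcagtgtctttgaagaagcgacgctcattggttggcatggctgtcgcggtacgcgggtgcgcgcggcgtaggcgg
Ccl25, second start: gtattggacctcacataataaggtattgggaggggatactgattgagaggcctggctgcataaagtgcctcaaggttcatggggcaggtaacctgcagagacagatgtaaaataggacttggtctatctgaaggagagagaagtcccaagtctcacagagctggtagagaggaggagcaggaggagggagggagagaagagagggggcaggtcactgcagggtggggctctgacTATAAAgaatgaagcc
The Ccl8 promoter held TATAAA from 32 to 27 bases before the start, and the second Ccl25 start held it from 16 to 11 bases before. The first Ccl25 start held no match and 45 CpG dinucleotides, a number reached by 0.405% of the 32851 promoters in the table (median 6), while the second start held 0 and Ccl8 held 1. Of the other motifs searched on both strands, AP-1 (TGANTCA) and the interferon response element (ISRE) and NF-kappaB motif, named only, were not found in these 3 windows. Over all promoters of the same length TATAAA was found in 12.4%, AP-1 in 6.75%, ISRE in 2.98% and the NF-kappaB motif in 7.25%. A match of letters is a description of the window and was not tied to binding.

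Each array carried 55681 probes, and between 23688 and 39139 of them exceeded the negative control limit in Cy5. The arrays lay on 5 slides, 4 of which held controls and all 3 doses, while slide 5 carried no control and 1 array each of the low and high dose. Each array was correlated with the arrays of each group over 28879 probes, with the slide effects of the fit removed. For 7 of the 22 arrays the mean correlation was highest with another group. Low dose replicate 1 and medium dose replicate 2, both on slide 1, were among them. Each had a mean correlation below 0 with the other arrays of its own group. The low dose array was most like the medium dose arrays (mean r = 0.194) and the medium dose array most like the low dose arrays (mean r = 0.0474). Whether their labels were exchanged cannot be told from the labels, which were kept. Without both, Ccl5 changed by 1.55 and 1.59 and Ccl25 by 0.55 and 0.95 at the low and medium doses. Other genes whose call changed without both are named below. The epithelial label was checked against 13 markers, of which 7 were detected in at least 4 control arrays. Among these were the keratins Krt8 and Krt18, with mean log2 ratios of -4.35 and -5.62 in controls, and Hopx, with 2.33. Cdh1 (E-cadherin) and Nkx2-1 (the lung lineage factor) were detected on 0 of the 22 arrays and Epcam on 2 of the 5 controls. All 8 fibroblast markers were detected on all 22 arrays. Of the 9 leukocyte markers with a probe 5 were detected in at least 4 control arrays, namely Ptprc, Itgam, Csf1r, Cd14 and Cd3e. Whether the cultures held any leukocytes was not tested.

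Detection divided the 9 genes. Ccl2, Ccl5, Ccl7, Ccl8, Ccl9 and Ccl25 exceeded the limit on all 22 arrays. Ccl17 did so on 18 arrays, Ccl11 on 1 control array and Ccl20 on 0 arrays. Ccl11 and Ccl20 were not well above background on any array, so no change is given for them as a result.

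**Figure D1:**
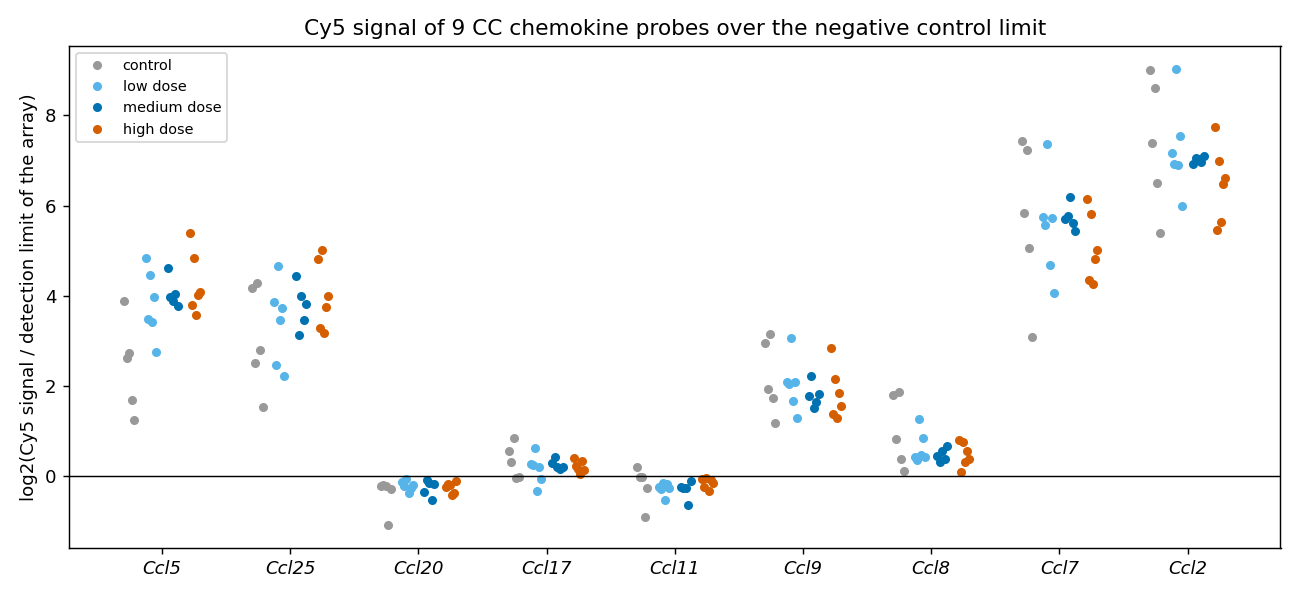
Cy5 signal of the 9 CC chemokine genes divided by the negative control limit of the same array, on a log2 axis, with 1 point per array and the brightest probe for each gene. Points below the line at 0 were not detected; Ccl20 lies below it on all 22 arrays and Ccl11 on all but 1, and heights of different probes cannot be compared with each other.

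The comparison of each dose with controls asked which CC chemokine transcripts differed after MWCNT exposure. Ccl5 was higher at all 3 doses, by 2.89- to 3.50-fold, and Ccl25 was higher at the medium and high doses. Ccl2, Ccl7 and Ccl8 were lower at the high dose, by 1.56- to 2.00-fold. No gene of the 9 was called lower at the low or the medium dose. Called means a limma adjusted p of 0.05 or less together with a change of 1.5-fold or more, in a probe seen above the detection limit on 4 or more arrays of one group.

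The low dose comparison had 1 of the 9 genes called higher and 0 lower, where 1.35% of all detected probes were called higher and 1.96% lower. At the medium dose 2 were called higher and 0 lower, against 2.72% and 2.97% of probes. At the high dose 2 were called higher and 3 lower, against 3.34% and 4.24%. The 9 genes were chosen with earlier results of these data known, so their counts beside these shares are a description and no test. The median log2 change of all 9 genes was 0.034 at the low, -0.22 at the medium and -0.29 at the high dose. For all detected probes the median was 0.0059, 0.0058 and 0.011. Of the 9 genes 7 were detected in each comparison. The counts and medians of the 9 also take in Ccl11 and Ccl20, which were not, so they are not strictly like those of detected probes. With median centring of the arrays in place of loess, Ccl5 was the only gene of the 9 called at each dose, while the high dose changes kept their direction at -1.06 for Ccl2 (adjusted p = 0.166), -0.87 for Ccl7 (adjusted p = 0.252), -0.54 for Ccl8 (adjusted p = 0.0237, under 1.5-fold) and 0.90 for Ccl25 (adjusted p = 0.182) by limma. The 3 comparisons share the control arrays.

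**Figure D2:**
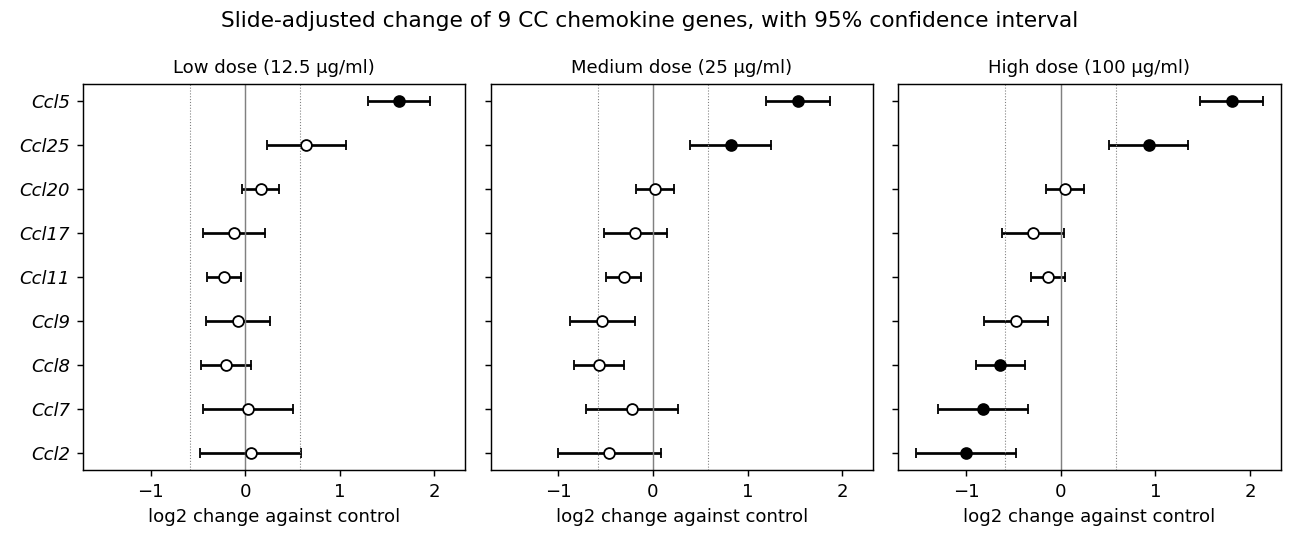
Slide-adjusted log2 change against control of the 9 CC chemokine genes at the low, medium and high dose, with the 95% confidence interval of the limma fit. Filled points are called genes and dotted lines mark 1.5-fold; Ccl5 is filled at all 3 doses, Ccl25 at the medium and high doses and Ccl2, Ccl7 and Ccl8 at the high dose, while Ccl11 and Ccl20 had no measurable level.

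Ccl5, which attracts T cells, monocytes and eosinophils, had log2 ratios of -3.33, -3.06, -4.78, -4.31 and -3.69 on control replicates 1 to 5. On the low dose arrays its lowest, median and highest ratios were -2.75, -2.26 and -1.55. On medium dose replicates 1 to 5 they were -2.03, -2.23, -2.81, -2.06 and -2.40, and on the high dose arrays the lowest, median and highest were -2.39, -2.06 and -1.77. Every exposed array was above every control, and the controls spread over more than 1 log2 unit. The change was 1.63 ± 0.16 (SE) at the low dose, 1.53 ± 0.16 at the medium dose and 1.81 ± 0.16 at the high dose on the log2 scale, which is 3.09-, 2.89- and 3.50-fold, with adjusted p = 3.37e-06, 5.01e-06 and 2.16e-07 by limma. Within the 4 slides that held controls it was higher on 4 of 4 at each dose, by 1.34 to 2.03, 1.06 to 2.25 and 1.29 to 2.39. It was called at all 3 doses under each of the 43 alternatives tried. Some of these could not remove a call. Aquantile scaling between arrays leaves ratios as they are, and dropping the detection filter or the fold limit can only add calls. In RNA from whole cultures, more cells that express a gene and more RNA per cell cannot be told apart.

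Ccl25, whose receptor is CCR9, had log2 ratios of 0.83, 0.13, -0.30, -0.25 and -0.74 on control replicates 1 to 5 at its brighter probe. The low dose arrays had a lowest ratio of -0.18, a median of 0.44 and a highest of 1.41. The medium dose replicates 1 to 5 gave 1.61, 0.60, 0.61, 0.38 and 0.59, and the high dose arrays had a lowest of 0.29, a median of 0.79 and a highest of 1.13. The groups overlapped, because control replicate 1 lay above 4 of the 5 medium dose arrays. With slide in the fit the change was 0.65 ± 0.20 (SE, adjusted p = 0.0858) at the low dose, 0.82 ± 0.20 (adjusted p = 0.0182) at the medium dose and 0.93 ± 0.20 (adjusted p = 0.00397) at the high dose by limma. Within slides it was higher on 4 of 4 at each dose, by 0.44 to 0.93, 0.63 to 1.32 and 0.61 to 1.47.

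The medium dose call of Ccl25 lay close to the limit of the adjusted p. It was lost without medium dose replicate 1 (0.69, adjusted p = 0.0683) or 5 (0.73, adjusted p = 0.0731) and without control replicate 2 (0.78, adjusted p = 0.0514), 3 (0.79, adjusted p = 0.0623) or 5 (0.74, adjusted p = 0.0593), all by limma. At the low dose the gene was called with the replicate number, not the slide, as block (0.65, adjusted p = 0.00913), without control replicate 1 (0.79, adjusted p = 0.0305), without low dose replicate 2 (0.77, adjusted p = 0.0327) and without slide 1 (0.79, adjusted p = 0.0393). The dimmer Ccl25 probe changed by 0.16 ± 0.11 (SE, adjusted p = 0.590), 0.42 ± 0.11 (adjusted p = 0.0294) and 0.42 ± 0.11 (adjusted p = 0.0180) at the low, medium and high doses by limma. That is the same direction at a smaller size, under 1.5-fold, and this probe stood well above background on 2 controls.

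**Figure D3:**
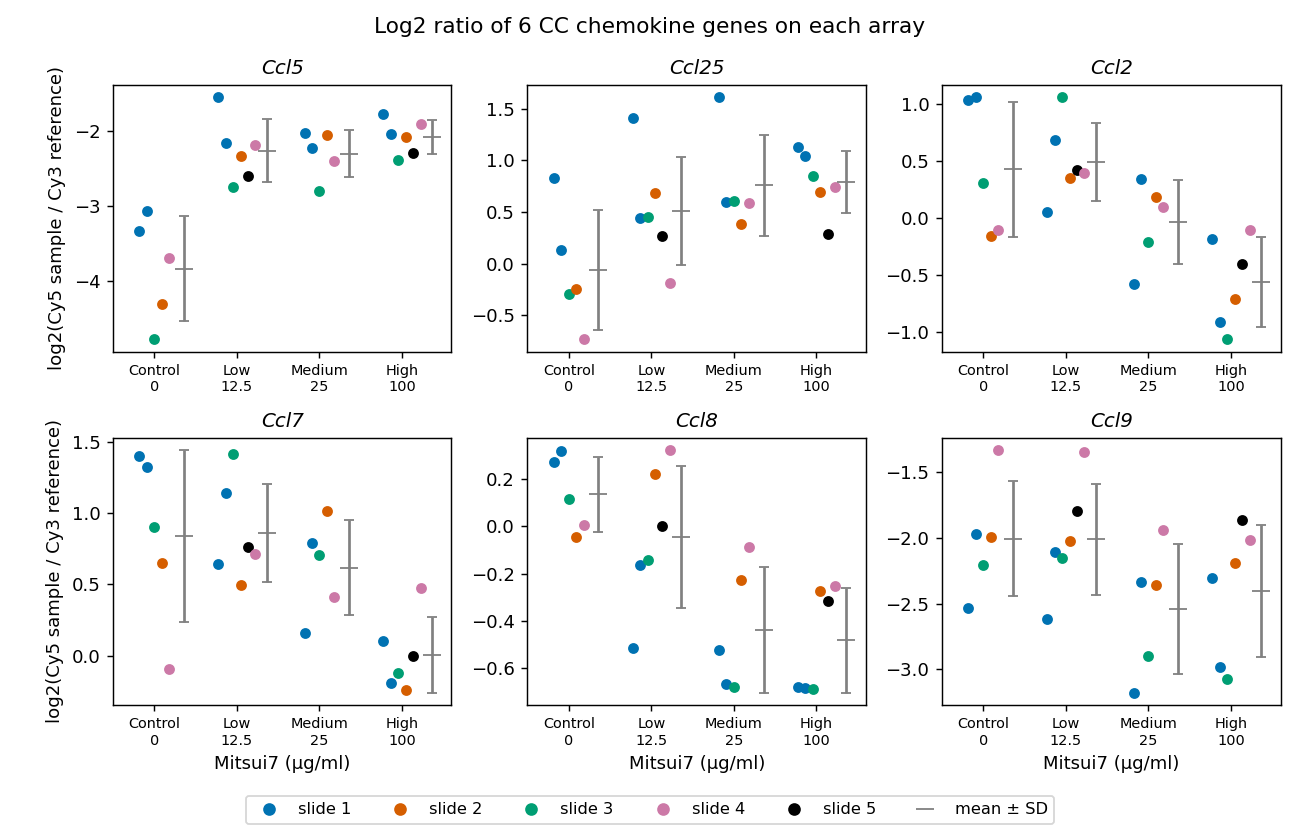
Log2 ratio of sample to reference of 6 CC chemokine genes on each array, by dose of Mitsui7 in µg/ml, with colours for the 5 slides and the mean ± SD of each group beside its points. Control points of Ccl5 lie below all exposed points, while groups overlap for Ccl25, Ccl2, Ccl7 and Ccl9, and for Ccl8 all medium and high dose points lie below all control points.

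Ccl2 (MCP-1), the main attractant of monocytes through CCR2, had log2 ratios of 1.04, 1.06, 0.31, -0.16 and -0.11 on control replicates 1 to 5. Its low dose arrays had a lowest ratio of 0.06, a median of 0.41 and a highest of 1.06. The medium dose replicates 1 to 5 gave -0.58, 0.35, -0.21, 0.19 and 0.09, and the high dose arrays gave a lowest of -1.07, a median of -0.56 and a highest of -0.10. The controls on slide 1, replicates 1 and 2, were the high ones, and 1 high dose array lay just above the lowest controls. The change was 0.06 ± 0.25 (SE, adjusted p = 0.955) at the low dose, -0.46 ± 0.26 (adjusted p = 0.444) at the medium dose and -1.001 ± 0.25 (adjusted p = 0.0148) at the high dose by limma, the last being 2.00-fold lower. Its probe was printed as 10 spots, whose log2 ratios had a median SD of 0.117 within an array, while the SD between control arrays was 0.596.

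Ccl7 (MCP-3), the next gene on chromosome 11 and also a ligand of CCR2, had log2 ratios of 1.40, 1.32, 0.90, 0.65 and -0.09 on control replicates 1 to 5. The low dose arrays had a lowest ratio of 0.50, a median of 0.73 and a highest of 1.41. The medium dose replicates 1 to 5 gave 0.16, 0.79, 0.70, 1.01 and 0.41, and the high dose arrays had a lowest of -0.24, a median of -0.06 and a highest of 0.48. Control replicate 5, on slide 4, was as low as the high dose arrays, and the other 4 controls lay above all of them. The change was 0.03 ± 0.23 (SE, adjusted p = 0.972), -0.22 ± 0.23 (adjusted p = 0.769) and -0.82 ± 0.23 (adjusted p = 0.0270) at the low, medium and high doses by limma, the last being 1.77-fold lower.

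The high dose calls of Ccl2 and Ccl7 depended on single slides and arrays. Within slides Ccl2 differed from control by -1.60 on slide 1, -0.56 on slide 2, -1.37 on slide 3 and 0.0034 on slide 4, and Ccl7 by -1.40, -0.89, -1.02 and 0.57. Without slide 1 Ccl2 changed by -0.59 (adjusted p = 0.264) and Ccl7 by -0.44 (adjusted p = 0.526) by limma. The call of Ccl2 was lost without control replicate 1 (-0.86, adjusted p = 0.0504) or 2 (-0.86, adjusted p = 0.0558) and without high dose replicate 3 (-0.87, adjusted p = 0.0599). The call of Ccl7 was lost when any of control replicates 1 to 4 or high dose replicates 1 to 4 was left out, with values from -0.85 to -0.69 and adjusted p from 0.0504 to 0.0908 by limma. Medium dose values had no stable sign, since without slide 1 Ccl2 stood at 0.011 and Ccl7 at 0.22.

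Ccl8 (MCP-2), which lies between Ccl11 and Ccl5 and signals mainly through CCR8 in mice, was dim. Its log2 ratios were 0.27, 0.32, 0.12, -0.04 and 0.01 on control replicates 1 to 5, and on the low dose arrays the lowest, median and highest were -0.51, -0.07 and 0.32. The medium dose replicates 1 to 5 gave -0.52, -0.67, -0.68, -0.23 and -0.09, and the high dose arrays had a lowest of -0.69, a median of -0.50 and a highest of -0.25. All medium and high dose arrays lay below all controls, and the low dose arrays overlapped both. The change was -0.20 ± 0.13 (SE, adjusted p = 0.532), -0.57 ± 0.13 (adjusted p = 0.00887) and -0.64 ± 0.13 (adjusted p = 0.00190) at the low, medium and high doses by limma, which is 1.15-, 1.49- and 1.56-fold lower. Within slides it was lower on 4 of 4 at the medium dose, by -0.89 to -0.09, and on 4 of 4 at the high dose, by -0.98 to -0.23.

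The Ccl8 values lay close to the 1.5-fold limit. Without control replicate 1 (-0.57, adjusted p = 0.00786), control replicate 2 (-0.56, adjusted p = 0.00832) or slide 1 (-0.40, adjusted p = 0.131) the high dose change was under 1.5-fold by limma. At the medium dose the gene was called without control replicate 4 (-0.68, adjusted p = 0.00296) or 5 (-0.69, adjusted p = 0.00173) and without medium dose replicate 4 (-0.60, adjusted p = 0.0175) or 5 (-0.62, adjusted p = 0.0135) by limma. The probe stood well above background on 4 of the 5 controls and 4 of the 6 high dose arrays. The background-corrected log ratio of the scanner software, a further reading of the same arrays, gave -1.20 at the high dose (adjusted p = 0.00862 by limma).

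Ccl9 (MIP-1 gamma), a ligand of CCR1, had log2 ratios of -2.53, -1.97, -2.20, -1.99 and -1.34 on control replicates 1 to 5. On the medium dose replicates 1 to 5 they were -3.18, -2.34, -2.90, -2.36 and -1.94, and the lowest, median and highest were -2.62, -2.07 and -1.35 at the low dose and -3.07, -2.25 and -1.86 at the high dose. All groups overlapped. The change was -0.08 ± 0.16 (SE, adjusted p = 0.895), -0.53 ± 0.17 (adjusted p = 0.0699) and -0.47 ± 0.16 (adjusted p = 0.0886) by limma, and no dose passed. Within slides Ccl9 was below control on 4 of 4 at the medium dose and on 4 of 4 at the high dose. At the medium dose it was called without control replicate 1 (-0.62, adjusted p = 0.0452), without medium dose replicate 2 (-0.65, adjusted p = 0.0203) and without both arrays that stood apart (-0.65, adjusted p = 0.0193) by limma.

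**Figure D4:**
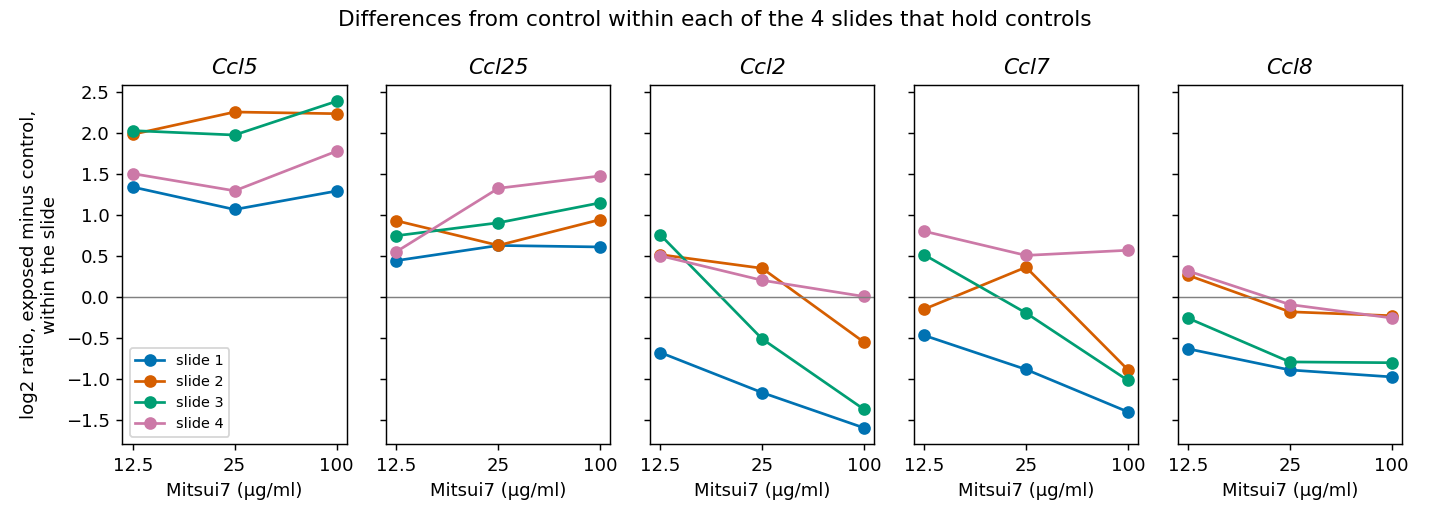
Difference of the log2 ratio from control within each of the 4 slides that held controls, by dose in µg/ml, for 5 CC chemokine genes, with 1 line per slide and the mean taken where a slide held 2 arrays of a group. Lines of Ccl5 and Ccl25 lie above 0 on all 4 slides at each dose, lines of Ccl8 lie below 0 on all 4 at the medium and high doses, and slide 4 lies at or above 0 for Ccl2 and Ccl7 at the high dose.

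Ccl17, a ligand of CCR4 on T helper cells, was near the detection limit, with a lowest, median and highest log2 ratio of -2.14, -1.43 and -0.81 in controls and -2.29, -1.70 and -1.36 at the high dose. Its change was -0.12 ± 0.16 (SE, adjusted p = 0.822), -0.19 ± 0.16 (adjusted p = 0.694) and -0.29 ± 0.16 (adjusted p = 0.357) at the low, medium and high doses by limma. It was well above background on 3 of 5 control and 2 of 6 high dose arrays. The log ratio of the scanner software gave -0.62 (adjusted p = 0.303), -0.27 (adjusted p = 0.708) and -0.67 (adjusted p = 0.190), which did not pass either. Ccl11 had Cy5 signals of 64.0 to 86.5 in controls and 65.0 to 74.5 at the high dose. Ccl20, the ligand of CCR6 on dendritic cells, had Cy5 signals of 56.5 to 71.0 in controls and 60.5 to 74.0 at the high dose. Both stayed at or close to the level of the negative controls in every group.

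The doses were also set against each other directly. No gene of the 9 was called between any 2 doses, where 0% of detected probes were called between the medium and low doses, 0% between the high and medium doses and 0.26% between the high and low doses. At an unadjusted p under 0.05 by limma the numbers of detected probes were 2344 of 31536, 1659 of 32613 and 3800 of 33098. Of the 9 genes they were 2, 2 and 4. Ccl5 differed by -0.10 between medium and low (95% confidence interval -0.43 to 0.24), by 0.28 between high and medium (-0.05 to 0.61) and by 0.18 between high and low (-0.13 to 0.49), so its levels at the 3 doses did not differ beyond their error. For Ccl25 the intervals were -0.24 to 0.59, -0.31 to 0.52 and -0.11 to 0.67, which also span 0. Against controls Ccl5 was higher at all 3 doses, whereas Ccl25 was not called at the low dose.

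The genes lower at the high dose had larger differences between doses. Ccl2 was at -1.06 ± 0.24 (SE) in the high against the low dose (adjusted p = 0.0641), Ccl7 at -0.85 ± 0.21 (adjusted p = 0.106) and Ccl8 at -0.44 ± 0.12 (adjusted p = 0.150) by limma. In the log2 ratios before slide adjustment all 6 high dose arrays lay below all low dose arrays for Ccl2 and for Ccl7. With slide adjusted, 6 did so for Ccl2 and 5 for Ccl7. With the replicate number, not the slide, as block, Ccl2 and Ccl7 were both called between these doses, which made 2 of the 9. Over all probes 178 were then called, as against 86 in the main fit. Ccl2 and Ccl7 were also both called without control replicate 5 (102 probes in all) and without high dose replicate 6 (89 probes). Ccl2 alone was called without low dose replicate 1 (200 probes) or medium dose replicate 1 (98 probes). Between the high and medium doses Ccl2 differed by -0.54 (interval -1.07 to -0.01), Ccl7 by -0.60 (-1.08 to -0.12) and Ccl8 by -0.07 (-0.33 to 0.20), each with adjusted p = 1.00 by limma.

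Marker genes of fibroblasts were also called lower at the high dose, where Ccl2, Ccl7 and Ccl8 were, and some of them already at the low and medium doses, where none of these 3 chemokines was called. Of the 8 fibroblast markers 4 were called lower at the low dose, 5 at the medium dose and 5 at the high dose, and 0 were called higher. Among all detected probes 1.96%, 2.97% and 4.24% were called lower. The markers called lower include decorin (Dcn, a matrix proteoglycan), which changed by -1.48, -1.87 and -2.27. The growth factor receptor Pdgfra was also among them and changed by -1.27, -1.37 and -1.53. Thy1, Acta2 and Vim were not called at any dose. At the low, medium and high doses Vim stood at 0.14, 0.39 and 0.14. Thy1 stood at 0.10, -0.16 and -0.02, and Acta2 at -0.37, -0.75 and -0.70. The mean log2 ratio of the 8 markers ranged over arrays from -0.35 to -0.17 in controls, while low dose arrays ranged from -1.29 to -0.55, medium dose arrays from -1.41 to -1.04 and high dose arrays from -1.64 to -1.07. Their summed Cy5 signal ranged from 132952 to 683664 in controls and 140904 to 362296 at the high dose. Of the 9 leukocyte markers with a probe 0 were called at any dose by limma, with 0, 1 and 0 of the detected at an unadjusted p under 0.05, and their summed Cy5 signal ranged from 6138 to 23573 in controls and 10501 to 17877 at the high dose. Of the 13 epithelial markers Hopx was called lower at each dose and Krt7 at the medium and high doses, 0 were called higher, and 2, 4 and 5 of the detected had an unadjusted p under 0.05. Among those not called, Sftpc (surfactant protein C) stood at 0.75 (adjusted p = 0.0913) and 0.61 (adjusted p = 0.152) at the medium and high doses and Scgb1a1 (the club cell secretory protein) at 0.40 (adjusted p = 0.182) and 0.49 (adjusted p = 0.0502) by limma. Of the 4 endothelial markers 0 were called, with 0 of the detected at an unadjusted p under 0.05. Among all detected probes the numbers at an unadjusted p under 0.05 by limma were 6525 of 30652, 7494 of 29722 and 8898 of 32283 at the low, medium and high doses. The part of any of these marker genes in the chemokine values was not tested.

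Of the 12 other CC ligands on the array, 4 were detected in the low and medium dose comparisons and 5 in that of the high dose, and 0 were called by limma, with 0 of the detected at an unadjusted p under 0.05. Their median log2 change among the detected was 0.13, 0.016 and 0.053 at the low, medium and high doses. Ccl3 (MIP-1 alpha), detected on all 22 arrays, changed by 0.20 (adjusted p = 0.785), -0.04 (adjusted p = 0.968) and 0.05 (adjusted p = 0.959) by limma. Of the 16 CC and atypical receptors 9, 7 and 9 were detected in the low, medium and high dose comparisons, and 0 were called by limma. At an unadjusted p under 0.05 there were 2 of the detected receptors in each. Among all detected probes there were 6525 of 30652, 7494 of 29722 and 8898 of 32283. Receptors detected on at least 4 control arrays were Ccr10, found on all 22 arrays, and Ccr8, the receptor of Ccl8. Ccr8 was found on 4 control arrays and on every exposed array. Ccr2, the receptor of Ccl2 and Ccl7, was detected on 1 control array.

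The third list held 17 genes whose proteins trim CC chemokines or make the heparan sulfate proteoglycans they bind. Mmp3 (stromelysin-1, a matrix protease that can cleave CC chemokines) rose by 1.93, 2.07 and 1.77 on the log2 scale at the low, medium and high doses (adjusted p = 3.28e-05, 1.13e-05 and 2.65e-05 by limma). Sdc2 (syndecan-2, a heparan sulfate proteoglycan) fell at the medium (-0.85, adjusted p = 0.0218) and high doses (-0.93, adjusted p = 0.00639), and Mmp2 (gelatinase A, a protease that trims Ccl7) fell at the high dose (-0.83, adjusted p = 0.0348). Hs6st1, which sulfates heparan sulfate chains, fell at the low dose (-0.75, adjusted p = 0.0178) and stood at -0.47 and -0.55 at the others without passing. In all 1 of the 17 rose at each dose, and 1, 1 and 2 fell. Among all detected probes 1.35%, 2.72% and 3.34% were called higher and 1.96%, 2.97% and 4.24% lower.

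The genes whose log2 ratios were most like those of a called chemokine were found over the 22 arrays with slide means removed, among 12283 detected genes, as a description without a test. For Ccl2 they were Ccl7 (Pearson r = 0.937), Ndrg2 (0.907) and Hlf (0.899), and for Ccl7 they were Ccl2, Ndrg2 (0.873) and Cfap161 (0.870). For Ccl8 they were Septin4 (0.933), Smpd1 (0.924) and Bnip3 (0.903). Ccl5 went most closely with Ifit1, an interferon-induced gene (0.974), with the hyaluronan receptor Cd44 (0.957) and with Mmp13, a collagenase (0.957), while Ccl25 went with Nup62 (0.956), Cbll1 (0.951) and Fastkd5 (0.949). All points share the arrays, their dose groups and the common reference, and values of Ccl2 and Ccl8 had r = 0.786 with each other, as against -0.589 for Ccl5 and Ccl8.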

How the data were processed

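Gene expression was measured on 22 two-colour Agilent mouse arrays of FE1 cells, with sample RNA in Cy5 and reference RNA in Cy3 on each and no dye swap. The deposited files are scanner output from the authors, with a median intensity per spot for Cy5 and for Cy3 that is not normalised. Their headers name Feature Extraction 10.7.3.1 and a grid on mm9, while the study's methods name another software version. The same deposited files hold a log10 ratio made by the scanner software, and the series matrix deposited with them holds log2 ratios whose normalisation is not stated. All 22 of its columns followed the log ratios of their own array most closely (median r = 0.985), with column medians from 0.0043 to 0.027. These 2 readings served as alternatives, and the scanner flags were used as deposited.

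Control spots were left out and outlier spots were treated as missing. The log2 of Cy5 over Cy3, with no background subtracted, went through loess normalisation within arrays. Without subtraction the changes of dim probes are compressed. Spots of a probe were combined by their median. A probe was detected when Cy5 was above the mean of 308 negative control spots plus 3 of their SDs, both trimmed by 5%. Well above background is the scanner software's own mark. Groups come from the sample labels, and 1 model with group and slide over all arrays was fitted in limma 3.58.1 (R 4.3.3), with Benjamini-Hochberg adjustment over 55681 probes. The study's own shrinkage test was replaced by limma's. The test recovered known changes in a self-test. A gene is given by its brightest probe.

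Accessions matched a symbol for 26413 of 55681 probes (GRCm38.p6 names). Sequences are RefSeq's on GRCm38.p6, not the grid's build, and no coordinates of the 2 builds were mixed. Members and gene lists were chosen with earlier results of these data known. All 9 chemokines are named, with list genes called at any dose, marker genes, and Ccl3, Ccr2, Ccr8 and Ccr10, which were chosen after their values were seen, and the 3 genes most like each called chemokine. No 2 arrays were duplicates, with at most 2.36% of spots equal and r at most 0.961. The study's methods name 3 separate experiments, fewer than the arrays of any group, so some arrays of a group share an experiment. The labels mention several exposures per dose and day without tying arrays to them. The p-values therefore measure the spread between these arrays, part of which lies within experiments and may be technical. The number of separate experiments and of arrays limits precision. Replicate numbers largely follow slides, and same-numbered arrays deviated together in every pair with controls (r from 0.230 to 0.811), a pairing that was -0.614 to 0.460 once slide was removed. Alternatives covered background correction, normalisation, source of the ratio, filters, thresholds, slide or replicate block, spread estimate, probe choice and leaving out each array or slide.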

Additional observations from a re-analysis of the deposited data

Results flagged for a closer look

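Each group of arrays was examined for 1 array far from the rest, over 10 probes and 4 groups, which made 40 groups, and 1 was found. Ccl25 on medium dose replicate 1 had a log2 ratio of 1.61 at its brighter probe, while the other 4 medium dose arrays ranged from 0.38 to 0.61, so that the gap to the nearest made up 0.817 of the range. About 1 group in 20 would be marked by chance. Without that array the medium dose change of Ccl25 was 0.69 (adjusted p = 0.0683 by limma), and the gene was not called. At this probe replicate 1 was also the highest array among controls (0.83), low dose arrays (1.41) and high dose arrays (1.13).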

How the results depend on the processing

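Ccl5 was called at all 3 doses under each alternative, some of which could not remove a call. The number of CC chemokine genes called at the medium dose, 2, was 1 with median centring, with a 2-fold limit, without the slide term, with an ordinary linear model, without slide 3 and with only the 2 groups compared. The number of CC chemokine genes at the high dose, 5, was 1 with median centring, 3 with the series matrix values, 2 with a 2-fold limit, 3 with an ordinary linear model, 2 without slide 1 and 3 without slide 3. Over all probes the number called there, 2448, was 1314, 2125, 714, 2135, 2090 and 1895 in that order. The number of CC chemokine genes at the low dose, 1, was 2 without slide 1, where 858 probes were called in all, as against 1017. Between the high and low doses the number, 0, was 1 with the fit on detected probes (Ccl2), without slide 4 (Ccl7) and without low dose replicate 1 and medium dose replicate 2 together (Ccl2). Over all probes the number called between these doses, 86, was 105, 66 and 211 in that order. The medium dose call of Ccl25 was lost, and that of Ccl8 gained, with the series matrix values (Ccl25 at 0.55, adjusted p = 0.209 by limma), without slide 2 (0.87, adjusted p = 0.0510) and without slide 4 (0.70, adjusted p = 0.0988). The high dose call of Ccl25 was also lost without the slide term (0.86, adjusted p = 0.0759 by limma) and with the series matrix values (0.71, adjusted p = 0.0513). With the series matrix values the high dose call of Ccl7 was lost too (-0.72, adjusted p = 0.315 by limma). Median centring also gave 65 probes higher and 376 lower at the low dose, where loess gave 415 and 602, and 382 and 932 at the high dose, where loess gave 1078 and 1370.

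With the replicate number, not the slide, as block, so that the pairing enters the fit, 2 genes were called at the low dose and 2 between the high and low doses, and no other call on the 9 genes changed. Over all probes 1222 were then called at the low dose, as against 1017, and 178 between the high and low doses, as against 86. Leaving out 1 array at a time gave 1 to 2 called genes for the low, 1 to 3 for the medium and 2 to 5 for the high dose, 0 to 2 between the high and low doses and 0 to 0 in the other dose pairs. Over all probes the numbers were 780 to 1179, 1347 to 2039 and 2148 to 2521 for the 3 doses. Between the high and low doses they were 41 to 200. For the 45 other ligands, receptors and modulators the number called was 1 to 2, 1 to 4 and 2 to 4 for the low, medium and high dose, a check chosen after seeing the data. Their numbers, 2, 2 and 3, were 1 at each dose with a 2-fold limit and 1 at the medium dose with median centring.

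Signs turned only for values that were not called, and ranges below are those over leaving out 1 array at a time. Low dose Ccl2 was -0.10 with median centring, -0.055 without slide 2, -0.089 without slide 3, -0.066 without slide 4 and -0.13 to 0.20 in that range. Low dose Ccl7 was -0.12 with median centring, -0.0084 with the replicate block, -0.068 without slide 3, -0.17 without slide 4 and -0.21 to 0.17 in that range. Low dose Ccl8 was 0.079 without slide 1, undetected Ccl11 was 0.030 with median centring and undetected Ccl20 was -0.092 with the series matrix values. Medium dose Ccl2 was 0.011 and Ccl7 0.22 without slide 1, and Ccl7 was 0.16 with the series matrix values. Medium dose Ccl20 was -0.067 with median centring, -0.047 without slide 2, -0.049 without both arrays that stood apart and -0.049 to 0.084 in that range. High dose Ccl11 was 0.033 without slide 1, and Ccl20 was -0.097 with the series matrix values, -0.0047 without slide 2 and -0.022 to 0.087 in that range. Aquantile scaling leaves ratios as they are by construction. The cause of these shifts was not tested. Ccl8 and Ccl17 lay near background, and no change was measurable for Ccl11 and Ccl20.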
